A study of Mus musculus with 12 samples.

Results

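The hair cell transcription factors described here are 10 genes chosen by symbol: Atoh1, Pou4f3, Gfi1, Lhx3, Ikzf2, Tbx2, Insm1, Barhl1, Rfx3 and Gata3. All 10 were found among the 55348 genes counted in the organ of Corti, the cochlear epithelium that holds the hair cells, and 8 passed the filter on low counts that 19052 genes passed in all. Atoh1 and Insm1 were too low to judge. The question was whether loss of clarin-1, clarin-2 or both changed the RNA of these regulators at postnatal day 21 (P21).

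RNA came from 4 genotypes of mice at P21, with 3 libraries each. Clrn1-/- mice carried a constitutive deletion of an exon of Clrn1, made in all tissues by PGK-cre. Clrn2-/- mice carried the clarinet allele, a premature stop in Clrn2 present in every cell. Clrn1-/-Clrn2-/- mice, called double mutants below, came from crosses of both lines, and wild-type mice carried neither mutation. The wild-type mice had breedings of their own and shared no litter with the mutants. Breeding and genotype therefore cannot be told apart in any comparison with wild-type. The stria vascularis and the modiolus had been removed, and the tissue still held hair cells, supporting cells, nerve fibres, mesenchyme and blood. The sources used here do not say whether a library came from 1 mouse or from a pool.

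Cochlear hair cells are specified and kept by a small set of DNA-binding proteins. Atoh1 starts hair cell development and is silenced as the cells mature. Pou4f3 acts after Atoh1 and keeps hair cells alive, and Gfi1, a zinc finger repressor needed for outer hair cell survival, acts downstream of it. Ikzf2 and Insm1 favour the outer hair cell programme and Tbx2 the inner hair cell programme. Lhx3 and Barhl1 are homeodomain proteins of differentiating and mature hair cells, Rfx3 is a ciliogenic factor, and Gata3 is used by the otic epithelium at large, including supporting cells and auditory neurons. In whole tissue, fewer cells of a type and less RNA per cell cannot be told apart.

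Start-site sequences are given for Gfi1 and Gata3, the members that changed by at least 1.5-fold, and for Rfx3, which passed the adjusted p in 2 mutants. Each window, from RefSeq on GRCm38.p6, holds 250 bases before and 50 bases from the start of transcription on the minus strand, and is written 5′ to 3′. The Gfi1 window lies at chr5:107725756-107726055, the Gata3 window at chr2:9878551-9878850, inside the span of the gene in Gencode, and the Rfx3 window at chr19:28011117-28011416. Capitals mark matches, on either strand, to 5 short motifs: the E-box CAGCTG, the GATA motif AGATAA, the GFI1 core AAATCA, the POU-type motif ATTAAT and the RFX half-site GTTGCC.

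Gfi1: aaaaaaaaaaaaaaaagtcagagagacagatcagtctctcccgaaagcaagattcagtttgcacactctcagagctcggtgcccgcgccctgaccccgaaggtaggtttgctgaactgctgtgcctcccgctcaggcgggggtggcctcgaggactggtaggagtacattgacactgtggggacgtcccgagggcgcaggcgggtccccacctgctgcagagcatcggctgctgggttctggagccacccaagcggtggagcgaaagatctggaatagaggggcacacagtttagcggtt

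Gata3: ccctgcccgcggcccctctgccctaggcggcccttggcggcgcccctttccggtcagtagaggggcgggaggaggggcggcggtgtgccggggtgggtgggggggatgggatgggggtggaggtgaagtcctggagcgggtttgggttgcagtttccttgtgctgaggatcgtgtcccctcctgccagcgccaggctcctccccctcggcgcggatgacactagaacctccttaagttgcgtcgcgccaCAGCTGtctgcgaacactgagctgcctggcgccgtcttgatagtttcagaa

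Rfx3: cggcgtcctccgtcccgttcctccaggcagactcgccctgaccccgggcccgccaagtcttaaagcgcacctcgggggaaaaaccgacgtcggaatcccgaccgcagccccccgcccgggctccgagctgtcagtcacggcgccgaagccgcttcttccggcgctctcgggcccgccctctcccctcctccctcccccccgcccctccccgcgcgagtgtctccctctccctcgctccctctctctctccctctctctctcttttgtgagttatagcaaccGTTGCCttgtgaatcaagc

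The Gata3 window held 1 E-box, whose first base was the last before the start site, and 16.3% of 32851 promoter windows of the same length held that motif. The Rfx3 window held 1 RFX half-site, the motif bound by its own protein family, beginning at base 32 after the start. That half-site was found in 12.5% of all windows. None of the 5 motifs was found in this Gfi1 window or in a second one at chr5:107724294-107724593. Among the other members searched, Atoh1 and Lhx3 held none, while Barhl1 held an E-box in both of its windows, a POU-type motif in the first, and a GATA motif and a GFI1 core in the second. Pou4f3 was left out of this search, and Tbx2, Ikzf2 and Insm1 had no window. The GATA motif was found in 11.2%, the GFI1 core in 13.997% and the POU-type motif in 4.75% of all windows. A match of this kind is a description and not a binding site.

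Each library held 30008679 to 41049302 gene counts, and scaling factors lay between 0.963 and 1.02. The targeted genes were checked first. Clrn1 was measured at 25.8 ± 2.47 counts per 1000000 counts of the scaled library (CPM; mean ± SD, n = 3 here and below) in wild-type, 28.8 ± 2.83 in Clrn2-/-, 2.83 ± 0.184 in Clrn1-/- and 2.30 ± 0.482 in double mutants. Clrn2 was lower in all 3 mutants, from 0.916 ± 0.107 in Clrn1-/- to 1.23 ± 0.172 in Clrn2-/- against 2.72 ± 0.727 in wild-type, so it did not separate Clrn1-/- from the other mutants. All 12 hair cell markers passed the filter, with a summed level of 335 to 365 CPM in wild-type libraries.

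Levels of different genes were compared per kilobase of exon, from the Gencode M21 exons of GRCm38. In wild-type tissue Gata3 and Tbx2 were the most abundant members, at 23.9 and 23.4 CPM per kilobase, and their libraries overlapped. These levels were higher than those of 88.5% and 88.2% of 18721 tested genes with a known length. Pou4f3 followed at 6.26 CPM per kilobase, Gfi1 at 2.25, Rfx3 at 1.11 and Ikzf2 at 0.852, and none of these overlapped with the next in order except for Ikzf2, whose lowest library (0.837) was reached by the highest of Lhx3 (0.837). Lhx3 (0.601) and Barhl1 (0.546) overlapped with each other. Insm1 (0.0471) and Atoh1 (0.0169) stood below the rest and overlapped as well.

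**Figure D1:**
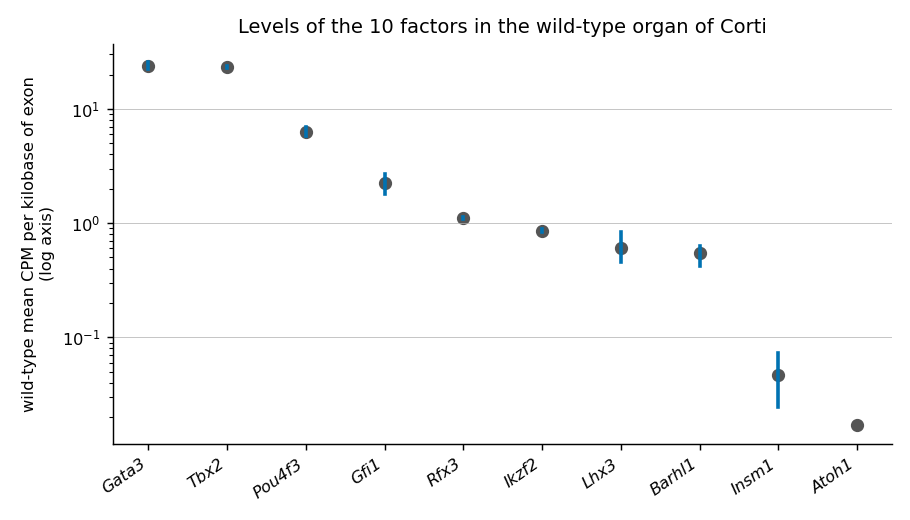
Mean CPM per kilobase of exon of the 10 members in wild-type, on a log axis, with lines from the lowest to the highest of 3 libraries (no line for Atoh1, which had no count in 1 library). Gata3 and Tbx2 lay at 23.9 and 23.4 CPM per kilobase and Atoh1 and Insm1 below 0.05.

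Of the 8 members tested, Gfi1 was under-expressed in Clrn1-/- and in double mutants and Gata3 was over-expressed in double mutants. No member was called in Clrn2-/-. A call required an adjusted p no higher than 0.05 together with a 1.5-fold change or more (edgeR quasi-likelihood test, Benjamini-Hochberg over all genes tested, here and below). In Clrn1-/- 0 members were called higher and 1 lower, where 3.52% and 3.7% of all genes were called. In Clrn2-/- the members called were 0 and 0, against 1.24% and 1.42% of all genes, and limma-voom and DESeq2 also called 0. There 4 of 8 had an unadjusted p under 0.05, a cut at which the share of all genes was not computed. In double mutants 1 was called higher and 1 lower, against 5.88% and 4.02%. By adjusted p alone, with no minimum of fold, 1 member was higher and 1 lower in Clrn1-/- (13.6% and 13.3% of all genes), 1 higher and 0 lower in Clrn2-/- (7.14% and 7.07%), and 5 higher and 1 lower in double mutants (19.1% and 17.9%). The median log2 fold change over the 8 members was 0.02 in Clrn1-/-, 0.24 in Clrn2-/- and 0.29 in double mutants, where that of all genes lay within 0.01 of 0. The 12 hair cell markers had medians of -0.03, 0.18 and 0.18 in the same order.

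**Figure D2:**
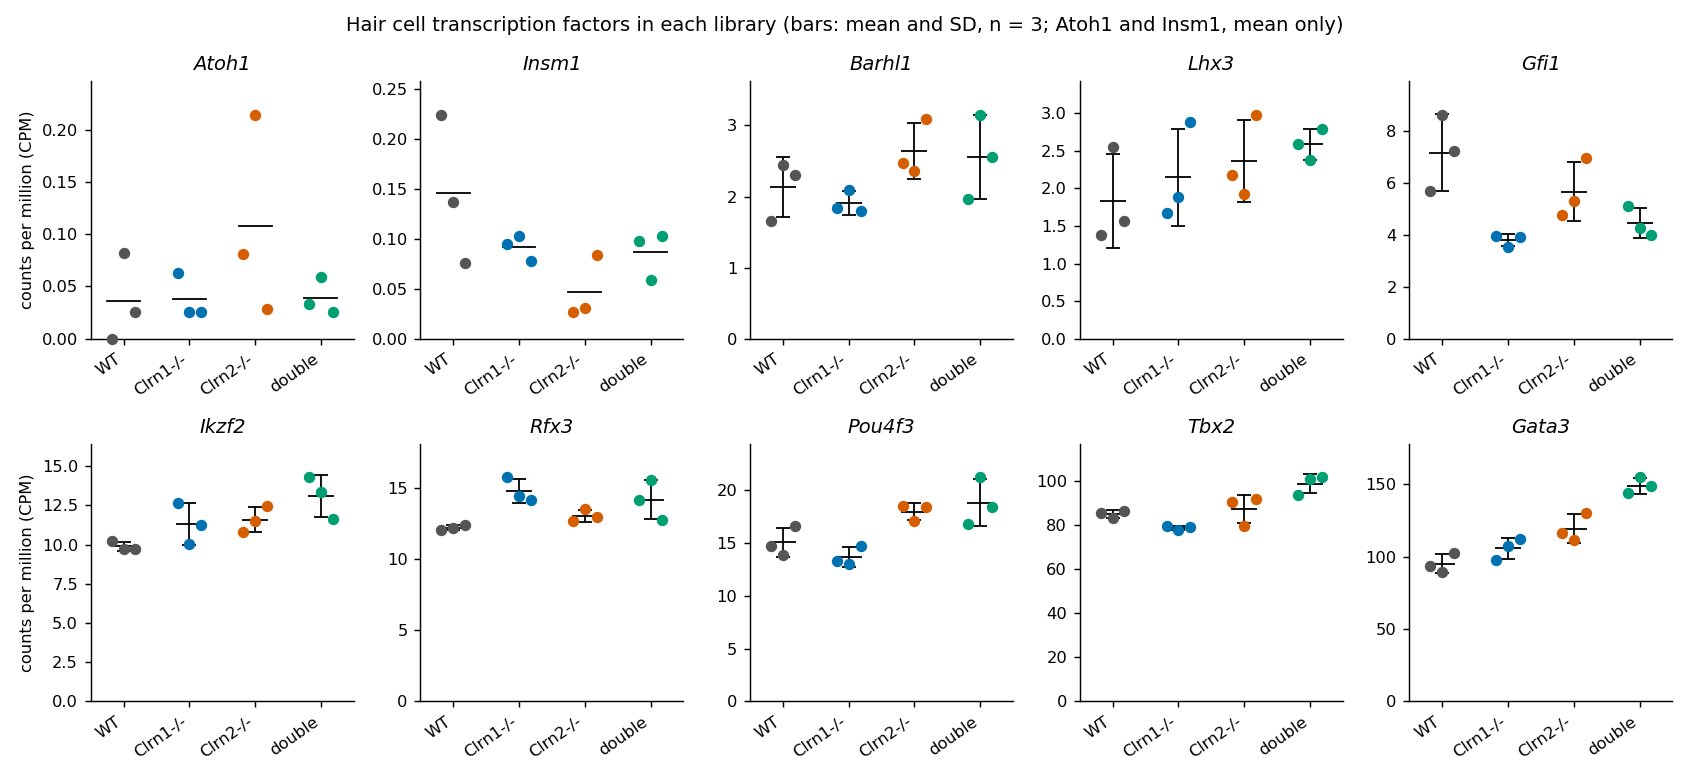
CPM of the 10 members in each library by genotype (WT, wild-type; double, Clrn1-/-Clrn2-/-), each panel from 0 with its own scale; bars give the mean and SD of 3 libraries, or the mean alone for Atoh1 and Insm1. All Clrn1-/- and double mutant libraries lay below wild-type for Gfi1, and all double mutant libraries lay above every other library for Gata3.

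Gfi1, on the minus strand of chromosome 5 (107716657 to 107726036), was the only member called lower than wild-type. Its level was 5.68, 8.63 and 7.21 CPM in wild-type replicates 1, 2 and 3. It was 3.95, 3.54 and 3.92 CPM in Clrn1-/-, 4.76, 5.29 and 6.94 CPM in Clrn2-/- and 5.11, 4.28 and 3.996 CPM in double mutants. All libraries of Clrn1-/- and of double mutants lay below the lowest wild-type library, and those of Clrn2-/- overlapped with wild-type.

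In Clrn1-/- mice Gfi1 was at 0.530 of wild-type (95% interval 0.417 to 0.674), a log2 fold change of -0.92 (SE 0.16, adjusted p = 0.000641). In double mutants it was at 0.620 of wild-type (0.489 to 0.786), a log2 fold change of -0.69 (SE 0.16, adjusted p = 0.00304). Wild-type replicate 2 was the highest of the 12 libraries, and without it the double mutant value was -0.55 (adjusted p = 0.0164), short of 1.5-fold. In Clrn2-/- the log2 fold change was -0.34 (SE 0.16, adjusted p = 0.171), with an interval of -0.67 to -0.01. That value was -0.18 without wild-type replicate 2, -0.22 without Clrn2-/- replicate 1 and -0.51 without Clrn2-/- replicate 3, and it was called in none of these.

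The single mutants were compared with each other as well. Gfi1 was lower in Clrn1-/- than in Clrn2-/-, with a log2 difference of -0.57 (interval -0.93 to -0.22, adjusted p = 0.0249), just short of 1.5-fold. It was called without Clrn1-/- replicate 3, without Clrn2-/- replicate 1 or 2, and in unstranded counts. Double mutants differed from Clrn1-/- by 0.23 (-0.14 to 0.59, adjusted p = 0.356) and from Clrn2-/- by -0.35 (-0.70 to 0.00, adjusted p = 0.133), neither past the threshold. The interaction of the genotypes for Gfi1 was 0.57 (0.07 to 1.06, adjusted p = 0.109).

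Hair cell markers were measured beside Gfi1. None of the 12 was called in Clrn1-/-, 2 were called higher in Clrn2-/- (Loxhd1, 0.59, and Xirp2, 0.71) and 1 in double mutants (Xirp2, 0.83). Their mean log2 CPM differed from wild-type by 0.00 in Clrn1-/-, 0.23 in Clrn2-/- and 0.23 in double mutants. Measured against that mean in the same library, Gfi1 was lower by a mean log2 difference of -0.89 in Clrn1-/-, -0.57 in Clrn2-/- and -0.90 in double mutants, and every mutant library lay below every wild-type library. The share of all genes without overlap on this ratio, or on the marker ratios given below, was not computed. Of 8 outer hair cell markers, 1 was called higher in Clrn1-/- (Lmod3, a sarcomere-type actin nucleator) and those called lower included Lbh (-0.90) and Chrna10 (-0.77), a subunit of the efferent nicotinic receptor. Of 6 inner hair cell markers, Dnajc5b (-2.11) and the vesicular glutamate transporter gene Slc17a8 (-0.89) were called lower in Clrn1-/-.

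**Figure D3:**
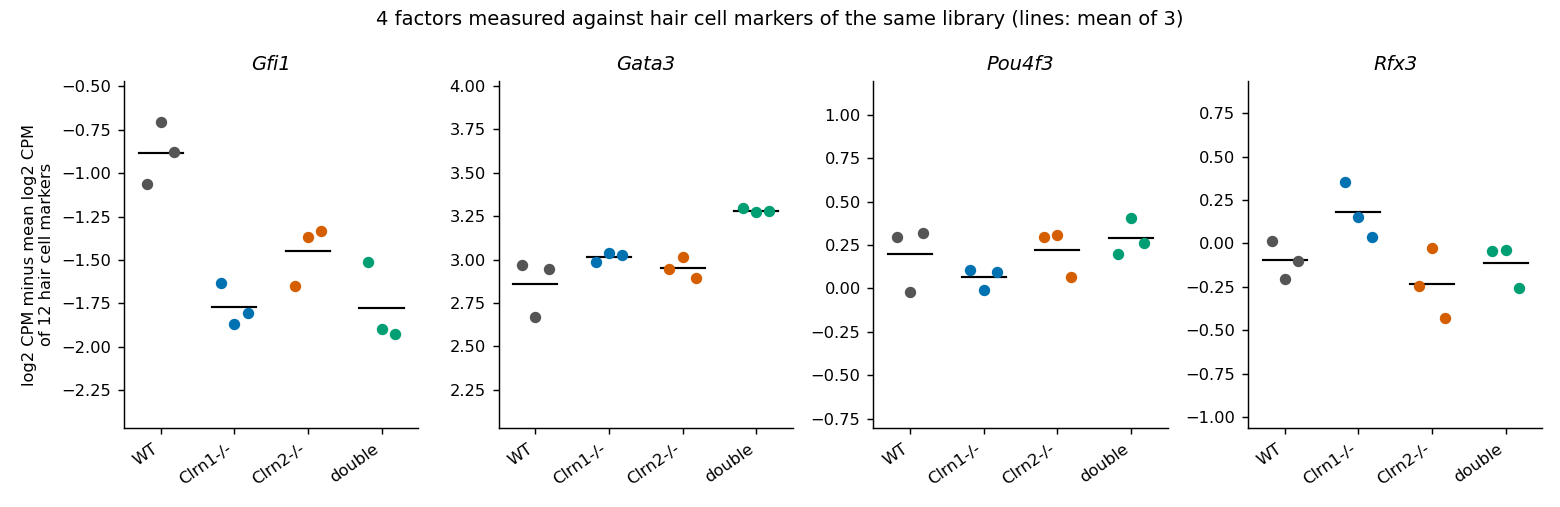
Log2 CPM of Gfi1, Gata3, Pou4f3 and Rfx3 minus the mean log2 CPM of 12 hair cell markers in the same library, by genotype (WT, wild-type; double, Clrn1-/-Clrn2-/-); points are libraries, lines are means of 3, and each axis spans 2 log2 units. Gfi1 lay below wild-type in every mutant library, with mean differences of -0.89, -0.57 and -0.90, and Gata3 lay above wild-type in Clrn1-/- and double mutants.

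Blood cells also use Gfi1, and blood markers moved between the genotypes. The 4 red blood cell markers summed to 673 to 1095 CPM in wild-type, 272 to 370 in Clrn1-/-, 416 to 624 in Clrn2-/- and 514 to 688 in double mutants. All 4 were called lower in Clrn1-/- and in Clrn2-/-, and 1 (Hba-a1) in double mutants. The 13 leukocyte markers summed to 13.3 to 25.7 CPM in wild-type, 30.7 to 34.3 in Clrn1-/-, 22.5 to 24.96 in Clrn2-/- and 22.4 to 37.7 in double mutants. Of the 11 tested, 4 were called higher in Clrn1-/- (including Camp, Cd4 and S100a8), the direction opposite to Gfi1, and none was called lower. Their part in the Gfi1 values was not tested.

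Some RNA of neighbouring genes could reach these counts. Gfi1 shares 101 exon bases with A430072P03Rik on the opposite strand, which had 4 to 18 counts per library against 125 to 315 for Gfi1. Reads were counted by strand, and Gfi1 was called in the same 2 comparisons in unstranded counts.

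Of 15405 genes averaging 1 CPM or more, those whose centred log2 CPM lay closest to that of Gfi1 over the 12 libraries were Gm11407 (root mean square difference 0.17), Gm4076 (0.18), Tpi-rs11 (0.18), Chrna10 (0.19) and Gm28437 (0.19). The spread of Gfi1 itself on the same measure was 0.39. Apart from Chrna10 these are annotated as pseudogenes, whose counts are uncertain because their reads may come from near-identical copies.

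Gata3, on the minus strand of chromosome 2 (9857078 to 9890034), was the only member called higher than wild-type. It was measured at 93.2, 89.7 and 102 CPM in wild-type, 97.9, 107 and 112 CPM in Clrn1-/-, 116, 111 and 130 CPM in Clrn2-/- and 144, 155 and 148 CPM in double mutants. Double mutant libraries lay above all others, Clrn2-/- libraries lay above wild-type, and Clrn1-/- overlapped with wild-type.

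In double mutants Gata3 was at 1.57 times wild-type (95% interval 1.42 to 1.72), a log2 fold change of 0.65 (SE 0.06, adjusted p = 1.17e-06). It was called under all alternatives, between 0.60 and 0.69. In Clrn2-/- the log2 fold change was 0.33 (SE 0.06, adjusted p = 0.00307) and in Clrn1-/- 0.16 (SE 0.07, adjusted p = 0.0910), both under 1.5-fold. With the replicate number as a block, the Clrn1-/- value was 0.15 (adjusted p = 0.0418), still not called.

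Gata3 was also higher in double mutants than in either single mutant, by 0.49 relative to Clrn1-/- (0.36 to 0.63, adjusted p = 2.95e-05) and by 0.32 relative to Clrn2-/- (0.18 to 0.46, adjusted p = 0.00166). Clrn1-/- and Clrn2-/- differed by -0.17 (-0.31 to -0.03, adjusted p = 0.0775). The interaction was 0.17 (-0.03 to 0.36, adjusted p = 0.241), so a difference between the change in double mutants and the sum of both single changes was not shown.

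Supporting cells also express Gata3, and their markers were more abundant in double mutants. The 12 supporting cell markers summed to 1858 to 2061 CPM in wild-type, 1953 to 2194 in Clrn1-/-, 1932 to 2272 in Clrn2-/- and 2894 to 3088 in double mutants. In double mutants 4 of the 12 were called higher and 1 lower, and the median of the 12 was 0.36 on the log2 scale. Otoa, which encodes the tectorial membrane attachment protein otoancorin, rose by 1.59 on that scale, the matrix gene Epyc by 1.02 and the receptor gene Fgfr3 by 0.94, while Prox1 fell by 0.83. Relative to the mean log2 CPM of these markers, Gata3 was above wild-type with no overlap in Clrn2-/- (by 0.21) and in double mutants (by 0.19), and it overlapped in Clrn1-/- (0.01). Relative to hair cell markers the values were 0.16 in Clrn1-/- and 0.42 in double mutants, with no overlap in either, and 0.09 in Clrn2-/-, with overlap.

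Auditory neurons use Gata3 too, and their markers went the other way. The 10 neuron markers summed to 11293 to 12369 CPM in wild-type and 7687 to 7809 CPM in double mutants. Their median was -0.48 on the log2 scale, with 3 called lower (Snap25, Nefl and Nefh) and 1 higher (Prph). Mesenchyme markers summed to 1732 to 2065 CPM in wild-type and 2548 to 2737 in double mutants, with 3 of 9 called higher. The part of cell content in the Gata3 values was not tested beyond these ratios.

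Gata3 shares 77 exon bases with 9230102O04Rik on the same strand, which had 55 to 132 counts per library against 3094 to 5758 for Gata3. The genes with the most similar profile over the 12 libraries were Ctf1 (root mean square difference 0.04), Tspan12 (0.06), Rorb (0.06), Ier2 (0.06) and Skp1a (0.06), against a spread of 0.25 for Gata3 itself. Their log2 fold changes in double mutants ran from 0.59 in Ier2 and Ctf1 to 0.76 in Skp1a. That direction follows from choosing them by likeness to Gata3 and is not a separate result.

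**Figure D4:**
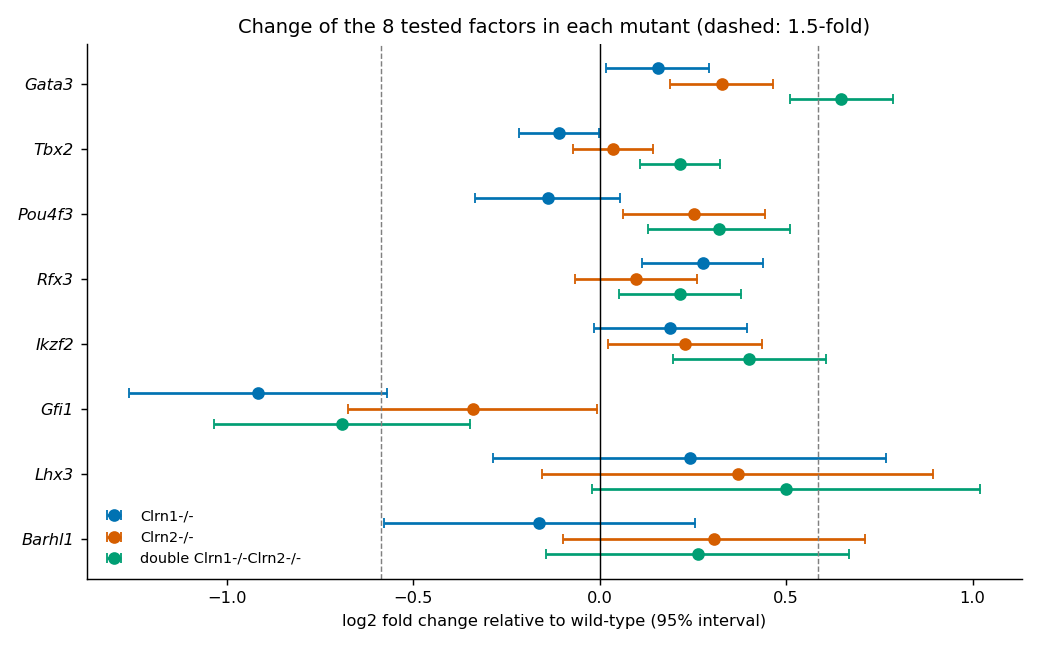
Log2 fold change of the 8 tested members relative to wild-type in Clrn1-/-, Clrn2-/- and Clrn1-/-Clrn2-/- mice; points are edgeR estimates from 3 against 3 libraries, bars are 95% intervals and dashed lines mark 1.5-fold. The Gfi1 points at -0.92 and -0.69 and the Gata3 point at 0.65 lie beyond the dashed lines, and the intervals of Lhx3 and Barhl1 are the widest.

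The upstream regulator Pou4f3 was not called in any mutant. Pou4f3, on chromosome 18 (42394539 to 42397249, plus strand), was at 14.6, 13.9 and 16.6 CPM in wild-type, 13.3, 12.9 and 14.7 in Clrn1-/-, 18.4, 17.0 and 18.3 in Clrn2-/- and 16.8, 21.2 and 18.3 in double mutants. Clrn2-/- and double mutant libraries lay above wild-type and Clrn1-/- overlapped with it. In double mutants Pou4f3 was higher by 0.32 on the log2 scale (SE 0.09, adjusted p = 0.0101), while the values for Clrn1-/- (-0.14, adjusted p = 0.285) and Clrn2-/- (0.25, adjusted p = 0.0723) did not pass. The double mutant value was 0.22 without double mutant replicate 2 (adjusted p = 0.0758) and 0.26 without wild-type replicate 2 (adjusted p = 0.0502). Pou4f3 differed between the single mutants by -0.39 (adjusted p = 0.00668) and between double mutants and Clrn1-/- by 0.46 (adjusted p = 0.00102), all under 1.5-fold. Relative to hair cell markers, Pou4f3 overlapped with wild-type in all 3 mutants.

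None of the factors linked to hair cell subtype was called in any mutant. Tbx2, on chromosome 11 (85832551 to 85841948, plus strand), was at 85.2, 83.1 and 86.5 CPM in wild-type and at 79.5, 77.6 and 79.0 in Clrn1-/-. It was at 90.1, 79.7 and 91.5 CPM in Clrn2-/- and at 93.5, 101 and 101 in double mutants. The double mutants lay above wild-type and Clrn1-/- below it, with no overlap on either side.

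Tbx2 was higher in double mutants by 0.21 on the log2 scale (SE 0.05, adjusted p = 0.00311), and the values in Clrn1-/- (-0.11, adjusted p = 0.124) and Clrn2-/- (0.04, adjusted p = 0.692) did not pass. It was higher in double mutants than in Clrn1-/- (0.32, adjusted p = 0.000141) and than in Clrn2-/- (0.18, adjusted p = 0.0156). The interaction was 0.29 (0.14 to 0.44, adjusted p = 0.0112). Relative to supporting cell markers, Tbx2 was below wild-type in every mutant library, by -0.26, -0.08 and -0.24 in Clrn1-/-, Clrn2-/- and double mutants. The mean of those markers itself rose by 0.15, 0.12 and 0.46 in the same order. Relative to hair cell markers Tbx2 overlapped in all 3.

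Ikzf2, on chromosome 1 (69531214 to 69687245, minus strand), was at 10.2, 9.75 and 9.72 CPM in wild-type, 12.7, 10.0 and 11.3 in Clrn1-/-, 10.8, 11.5 and 12.4 in Clrn2-/- and 14.3, 13.4 and 11.6 in double mutants. Clrn2-/- and double mutant libraries lay above wild-type, and Clrn1-/- replicate 2 fell among the wild-type libraries. Ikzf2 was higher in double mutants by 0.40 (SE 0.10, adjusted p = 0.00367), with an interval that reached from 0.20 to 0.61. The values in Clrn1-/- (0.19, adjusted p = 0.166) and Clrn2-/- (0.23, adjusted p = 0.134) did not pass. Relative to hair cell markers, Ikzf2 overlapped with wild-type in all 3 mutants, at 0.19 in Clrn1-/-, -0.01 in Clrn2-/- and 0.17 in double mutants. Insm1, the other outer hair cell factor, could not be judged.

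Rfx3, on chromosome 19 (27761721 to 28011166, minus strand), was at 12.02, 12.2 and 12.4 CPM in wild-type, 15.8, 14.5 and 14.2 in Clrn1-/-, 12.7, 13.5 and 12.98 in Clrn2-/- and 14.2, 15.6 and 12.8 in double mutants. Every mutant library lay above the wild-type libraries, which spanned only 12.02 to 12.4 CPM. Rfx3 was higher by 0.28 in Clrn1-/- (SE 0.08, adjusted p = 0.0137) and by 0.22 in double mutants (SE 0.08, adjusted p = 0.0372), but not past the threshold in Clrn2-/- (0.10, adjusted p = 0.458). Over the alternatives the adjusted p in double mutants ran from 0.0132 to 0.220 (without double mutant replicate 2, where the value was 0.14), and without Clrn1-/- replicate 1 that in Clrn1-/- was 0.0606. Relative to hair cell markers, Rfx3 was above wild-type with no overlap in Clrn1-/- (0.28) and overlapped in Clrn2-/- (-0.14) and double mutants (-0.01). Over all genes, mutant libraries lay wholly above wild-type for 20.5% in Clrn1-/-, 14.6% in Clrn2-/- and 24.96% in double mutants, and wholly below for 19.8%, 14.4% and 23.2%, so a lack of overlap was common.

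Lhx3 and Barhl1 were measured with less precision, since Lhx3 had 49 to 111 counts per library and Barhl1 58 to 110. Lhx3, on chromosome 2 (26200212 to 26208289, minus strand), was at 1.38, 2.55 and 1.57 CPM in wild-type, 1.68, 1.89 and 2.88 in Clrn1-/-, 2.18, 1.93 and 2.98 in Clrn2-/- and 2.59, 2.38 and 2.78 in double mutants. Wild-type replicate 2 lay within the range of every mutant. The log2 fold changes were 0.24, 0.37 and 0.50 in Clrn1-/-, Clrn2-/- and double mutants, and the adjusted p values were 0.516, 0.359 and 0.126. Without wild-type replicate 2 the double mutant value was 0.80 (adjusted p = 0.0185), which would be called. Without wild-type replicate 1 it was 0.33 (adjusted p = 0.372), and in Clrn2-/- the value ran from 0.18 to 0.68 as single libraries were left out. Lhx3 shares 188 exon bases with the antisense gene Gm27196, which had 14 to 67 counts per library. In unstranded counts the double mutant value of Lhx3 was 0.25 (adjusted p = 0.305).

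Barhl1, on chromosome 2 (28907679 to 28916668, minus strand), was at 1.66, 2.44 and 2.30 CPM in wild-type, 1.83, 2.10 and 1.79 in Clrn1-/-, 2.47, 2.36 and 3.09 in Clrn2-/- and 1.97, 3.15 and 2.55 in double mutants. All groups overlapped with wild-type. The log2 fold changes were -0.16 (-0.58 to 0.26), 0.31 (-0.10 to 0.71) and 0.26 (-0.14 to 0.67), with adjusted p values of 0.590, 0.320 and 0.312. With single libraries left out they ran from -0.31 (without wild-type replicate 1) to -0.06 (without wild-type replicate 2), from 0.16 (without wild-type replicate 1) to 0.41 and from 0.09 (without double mutant replicate 2) to 0.41 (without double mutant replicate 1). Changes of 1.5-fold upward in Clrn2-/- or double mutants are within these intervals.

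Atoh1, on chromosome 6 (64729125 to 64731245, plus strand), had 23 counts over the 12 libraries, with 0, 3 and 1 in wild-type, 2, 1 and 1 in Clrn1-/-, 3, 7 and 1 in Clrn2-/- and 1, 2 and 1 in double mutants. Insm1, on chromosome 2 (146221921 to 146225020, plus strand), had 40 counts in all. Its counts were 8, 5 and 3 in wild-type, 3, 4 and 3 in Clrn1-/-, 1, 1 and 3 in Clrn2-/- and 3, 2 and 4 in double mutants. At this depth 3 counts correspond to 0.0759 to 0.0983 CPM, while Insm1 averaged 0.0931 and Atoh1 0.0553 CPM over the 12 libraries. Neither was tested, and a difference between genotypes was not detectable.

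Between the mutants, and for the interaction, edgeR, limma-voom and DESeq2 called 0 members. At an unadjusted p under 0.05 the 8 members gave 6 between the single mutants, 5 and 2 in double mutants relative to Clrn1-/- and Clrn2-/-, and 2 for the interaction. The shares of all genes at that cut were not computed, and they cannot be below those by adjusted p given next. By adjusted p alone, 2 of 8 differed between Clrn1-/- and Clrn2-/- (Gfi1 and Pou4f3, both lower in Clrn1-/-), where 18.5% of all genes did and 4.73% were called. Relative to Clrn1-/-, 3 were higher in double mutants (Gata3, Pou4f3 and Tbx2), where 30.4% of all genes differed and 7.23% were called. Relative to Clrn2-/-, 2 were higher (Gata3 and Tbx2), where 27.6% differed and 5.1% were called. For the interaction, 1 member passed (Tbx2), where 17.4% of all genes did and 5.5% were called.

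Paralogs of the members and other transcription regulators of the inner ear were set beside them. Of 21 paralogs tested, Rfx4 (0.61) was called higher and Atoh7 (-0.75) lower in Clrn1-/-, Atoh7 (-0.61) was called lower in Clrn2-/- and Atoh8 (0.81) was called higher in double mutants. The summed level of all 28 paralogs lay between 325 and 373 CPM in the 12 libraries. Of 55 other regulators tested, 0 were called higher and 1 lower in Clrn1-/- and 2 higher and 0 lower in Clrn2-/-. In double mutants 10 were called higher and 3 lower. Their median log2 fold change there was 0.30, close to the 0.29 of the members.

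Among the regulators called in double mutants, the largest increases were in Sox21 (1.10), an HMG-box gene of the sensory epithelium, and in the epithelial regulators Grhl2 (1.03) and Tfap2a (1.01). The 3 called lower were Neurog1 (-2.04), the proneural gene of auditory neurons, the nuclear receptor gene Esrrb (-0.95) and the homeobox gene Prox1 (-0.83). Neurog1 was at 0.409 ± 0.116 CPM in wild-type, so its values rest on few counts, and it was the gene called lower in Clrn1-/-, at 0.0279 ± 0.0262 CPM. In Clrn2-/- the genes called higher were Etv5 (0.64) and Id1 (0.59).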

How the data were processed

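Organ of Corti RNA of 12 libraries was measured. The deposited values are counts per gene, which the authors made with STAR (version not given in the sources used here) on GRCm38.p6 with Gencode M24, with no normalization. The reverse-strand column was used, which held 95.2% to 95.6% of stranded counts. Rows of unassigned reads (13.5% to 15.8%) were left out. Coordinates came from Gencode M21, an earlier release, matched by symbol (53244 of 55348 genes).

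The counts went into edgeR 4.0.16 under R 4.3.3 (filterByExpr with a minimum count of 10, TMM, quasi-likelihood test, all 12 libraries, genotype alone). A member was too low to judge if it failed this filter or had a mean below 0.5 CPM in every genotype. Alternatives were DESeq2 1.42.0, limma 3.58.1 (voom), no filter, library size alone, an FPKM filter of 0.1, the compared genotypes alone, adjusted p alone, unstranded counts, a replicate block and each library left out. The fit was tested on simulated data.

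Named genes were all members, up to 3 called genes per direction of each list, and the 5 genes closest to each called member. The members, lists and tests were chosen with earlier results of these data known, and the ratio to supporting cell markers was added after values were seen. Lists covered hair, inner and outer hair, supporting, neuron, leukocyte, red blood, mesenchyme, and stria and melanocyte markers, paralogs and other regulators, of which 1 marker is not reported here. Replicate numbers were not shown to pair libraries. Over 12453 genes, correlations of deviations at the same replicate number were 0.291, 0.134 and 0.111 for wild-type with Clrn1-/-. They were 0.257, -0.279 and 0.306 for wild-type with double mutants, and 0.046, 0.0292 and 0.0899 for Clrn1-/- with Clrn2-/-. The labels name no separate mice per library, so p-values measure the spread between libraries. Intervals of counts cover counting error only.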

Additional observations from a re-analysis of the deposited data

Results flagged for a closer look

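Tbx2 was flagged because the effect of losing clarin-1 differed with the genotype at Clrn2. The interaction was 0.29 on the log2 scale (edgeR quasi-likelihood test, adjusted p = 0.0112), under 1.5-fold. Mean CPM of Tbx2 was 98.5 ± 4.34 in double mutants, 87.1 ± 6.45 in Clrn2-/-, 78.7 ± 0.966 in Clrn1-/- and 84.9 ± 1.72 in wild-type (SD, n = 3). Groups of 3 libraries are too small to test single libraries as outliers.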

How the results depend on the processing

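Of 504 values recomputed under the alternatives, 495 kept their direction and their side of the threshold. Most were uncalled in the main fit. Many could hardly move, since they left out a library of a genotype not compared or kept the main estimates. Gfi1 in Clrn1-/- (-1.05 to -0.76) and Gata3 in double mutants (0.60 to 0.69) were called under every alternative. With adjusted p alone, the members passing numbered 2 in Clrn1-/-, 1 in Clrn2-/- and 6 in double mutants relative to wild-type, 2 between the single mutants, 3 and 2 in double mutants relative to Clrn1-/- and Clrn2-/-, and 1 for the interaction, because no fold minimum was set. Unstranded counts called 1 member (Gfi1) between the single mutants, and the cause was not tested. With single libraries left out, 0 to 1 members were called between the single mutants and 0 to 1 for the interaction, in both cases Gfi1, the latter without wild-type replicate 1 or Clrn2-/- replicate 3. The Gfi1 call in double mutants ended without wild-type replicate 2 (-0.55), and that of Lhx3 appeared (0.80). Lhx3 in Clrn1-/- ran from -0.0291 to 0.554 as single libraries were left out, the negative value being without Clrn1-/- replicate 3. The replicate block changed no call of a member (Gfi1 in Clrn1-/- -0.91, Gata3 in double mutants 0.65). Counts below 10 per library limit Atoh1 and Insm1.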

Other observations

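Outer hair cell markers moved in both directions in the mutants. In double mutants Lmod3 (2.24), Chrna9 (0.99), a subunit of the efferent nicotinic receptor, and Ocm (0.97), the calcium buffer oncomodulin, were called higher (edgeR), and those called lower included Lbh (-0.78), of 8 tested. In Clrn2-/- Lmod3 (1.63), Ocm (0.83) and Chrna9 (0.77) were called higher and Lbh (-0.75) lower. In both genotypes the hair cell gene Xirp2 was called higher, by 0.71 in Clrn2-/- and 0.83 in double mutants.

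Stria and melanocyte markers summed to 26.3 to 90.3 CPM in wild-type, 43.4 to 85.4 in Clrn1-/-, 22.4 to 85.2 in Clrn2-/- and 18.9 to 37.2 CPM in double mutants, so they varied widely between replicates. Pmel, a melanosome gene, was called higher in Clrn1-/- (3.07) and double mutants (1.17), and Dct (-1.93) and Kcne1 (-1.65) were called lower in double mutants. Both of the latter overlapped with wild-type, where Dct was at 39.1 ± 24.6 CPM and Kcne1 at 8.44 ± 4.43 CPM.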
